A study of Mus musculus with 8 samples.

Results

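The 34 genes described here are effectors of the transcription factor p53, the genes it switches on to halt division, repair DNA, adjust metabolism or kill the cell. They were taken by symbol from a fixed list that leaves out p53 itself, its regulators Mdm2 and Mdm4 and the target Cdkn1a. All 34 were among the 13725 mouse genes of the deposited table. Islets were isolated from female NOD mice aged 10 weeks, which become diabetic through autoimmunity without being induced to. Of the 8 RNA libraries, 4 came from vehicle animals and 4 from animals given PAHSA. These are lipids in which palmitic acid is joined to a hydroxy stearic acid, and the sample labels spell them PASHA. The study concerns the action of PAHSA on senescence and beta cell stress through Mdm2 and p53. All animals shared sex, strain and age. The sources used here do not state dose, route or length of treatment.

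A library is either 1 mouse, as the series' design text reads, or islets pooled from 2 mice, as the extraction protocol reads. The p-values therefore measure the spread between libraries, part of which may be technical. Islets hold several cell types, so a lower value in a library cannot be told apart as fewer cells of a type or less RNA per cell. The labels number the vehicle libraries 1, 3, 4 and 5, and those from PAHSA 1 to 4.

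In an unstressed cell Mdm2 marks p53 for destruction. DNA damage and other stresses break that hold, p53 accumulates, and it binds DNA as a tetramer at pairs of short half-sites near its target genes. Some targets stop the cell cycle or repair damage, and others permeabilise mitochondria or sensitise the cell to death ligands. In islets the pathway is studied for beta cell loss under stress and for the lasting arrest of senescence.

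Promoter sequence is shown for 6 members to set those with a match to the p53 half-site beside members among those with the smallest p-values in the comparison below. The half-site has 10 letters and reads the same on both strands, and only exact matches were counted, in windows from 250 bases before to 50 bases after an annotated start (RefSeq, GRCm38.p6). In that search 26 of the 34 members had at least 1 window, and 8 of their 35 windows, from 7 members, held a half-site. Of all 32851 windows 8.36% held one. Aen accounted for 2 of the 8 member windows, which overlap and hold the same site. The 7 members were Ccng1, Bax, Sesn1, Gadd45a, Aen, Ei24 and Polk. A pair of half-sites with up to 13 bases between them and at most 1 mismatch stood in 0.627% of all windows and, among members, in that of Ccng1 alone. A match is a description of letters and not a measured site of binding.
Each line gives the 120 bases from 220 to 101 bases before the start, on the gene's strand, with half-sites in capitals:
Ccng1 (chr11:40755387-40755506, minus strand): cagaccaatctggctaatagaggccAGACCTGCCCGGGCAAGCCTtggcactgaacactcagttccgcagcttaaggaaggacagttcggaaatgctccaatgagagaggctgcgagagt
Bax (chr7:45466999-45467118, minus strand): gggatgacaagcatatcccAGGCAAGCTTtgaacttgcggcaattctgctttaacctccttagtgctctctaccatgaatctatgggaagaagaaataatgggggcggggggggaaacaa
Sesn1 (chr10:41887219-41887338, plus strand): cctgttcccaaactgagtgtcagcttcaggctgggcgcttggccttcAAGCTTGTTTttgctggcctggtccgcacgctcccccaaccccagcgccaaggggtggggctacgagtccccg
Sesn2 (chr4:132510557-132510676, minus strand): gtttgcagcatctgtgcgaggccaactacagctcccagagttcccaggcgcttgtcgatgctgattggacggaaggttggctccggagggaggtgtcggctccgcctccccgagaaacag
Plk3 (chr4:117134064-117134183, minus strand): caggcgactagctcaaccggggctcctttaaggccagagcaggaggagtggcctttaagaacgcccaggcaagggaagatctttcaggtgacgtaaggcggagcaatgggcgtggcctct
Trp53i13 (chr11:77513374-77513493, minus strand): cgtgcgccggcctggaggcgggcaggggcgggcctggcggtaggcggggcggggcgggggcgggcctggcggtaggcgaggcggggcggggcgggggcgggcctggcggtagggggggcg
The Ccng1 line holds 2 half-sites side by side with no gap, 1 letter short of a perfect pair, and the Bax and Sesn1 lines hold 1 each. The Sesn1 line is from a start inside the gene, which begins at chr10:41809935 in GENCODE M21 (GRCm38). No other Sesn1 window held a half-site. The windows of Sesn2, Plk3 and Trp53i13 held none. Pmaip1, Perp, Zmat3, Tnfrsf10b, Rrm2b, Ddb2, Xpc and Trp53inp1 had no window and were not searched. Of these, Trp53inp1 had a smaller p-value than Sesn2 in the comparison below.

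The libraries were deep, with 34461742 to 45236238 estimated counts each. These were recovered by taking the lowest value of each column, near -6 log2 CPM and shared by many genes, as a count of 0 to which the authors had added 0.5. A gene at that lowest value is called undetected below. CPM is the number of reads of a gene scaled to a common library size. All 10 beta cell markers were present, with a summed level of 137132 to 180008 CPM in vehicle and 141476 to 175773 in PAHSA, a sum dominated by the hormone genes. Of these 10 markers 8 had higher means in PAHSA, 3 of them at an unadjusted p under 0.05 in limma, namely Ucn3 at 0.77 (SE 0.15, groups not overlapping), Mafa at 0.40 (SE 0.16) and Slc2a2 at 0.64 (SE 0.27) on the log2 scale. Of 14 T, NK and B cell markers 2 were in the table. Acinar markers, from the digestive tissue around the islets, summed to 13947 to 55262 CPM in vehicle and 566.6 to 21177 in PAHSA, and all 22 that were tested had lower means in PAHSA, 16 at an unadjusted p under 0.05. PAHSA replicate 4 had the smallest acinar sum. Duct markers, 8 of 9 in the table, summed to 4218 to 6159 CPM in vehicle and 3427 to 4413 in PAHSA. Of the 8 duct markers 7 had lower means in PAHSA, 4 at an unadjusted p under 0.05, and the groups did not overlap for Muc1 at -1.15 (SE 0.28) and Spp1 at -0.73 (SE 0.17). Summed stellate, fibroblast and pericyte markers, 11 of 11 in the table, ran from 82.7 to 314.8 CPM in vehicle and from 39.2 to 143.7 in PAHSA, with Lum undetected in PAHSA replicates 2 and 4. The part of these other cells in the results below was not tested, beyond a fit with the acinar marker mean as a covariate.

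None of the p53 effectors passed the test between PAHSA and vehicle. A gene was tested if its mean over the 8 libraries exceeded 0 on the log2 CPM scale, which 31 of the 34 members did. The 3 left out were Pmaip1, Eda2r and Pidd1. In limma, 0 of the 31 passed an adjusted p of 0.05, as did 0 of all 12231 genes tested (0% of them). At an unadjusted p under 0.05 there were 3 members, all higher in PAHSA, which is 9.68% of the members beside 7.31% of all genes tested (3.02% higher and 4.29% lower). The 3 were Trp53i13, Plk3 and Trp53inp1. By sign, 16 members were higher and 15 lower in PAHSA, 51.6% higher beside 49.1% of all genes, and the median difference was 0.02 on the log2 scale beside -0.006 over all genes. The count of 3 was 0 without PAHSA replicate 1, beside 6.24% of all genes tested. It was 1, a higher member, without vehicle replicate 3 (beside 5.47%) and without PAHSA replicate 4 (beside 7.91%). Without vehicle replicate 4 it was 1, a lower member, beside 6.91%. Without PAHSA replicate 2 it was 6, 5 higher and 1 lower, beside 7.82%. With the acinar marker mean as a covariate it was 2, 1 higher and 1 lower, beside 7.10% of all genes tested. Without the eBayes trend it was also 2, 1 higher and 1 lower, beside 6.57%. With array weights it was 3, 2 higher and 1 lower, beside 8.12%. The median standard error (SE) of a member's log2 difference was 0.24, and the 95% confidence interval reached a median of 0.52 to either side, so changes of a typical member smaller than that were within the error.

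**Figure D1:**
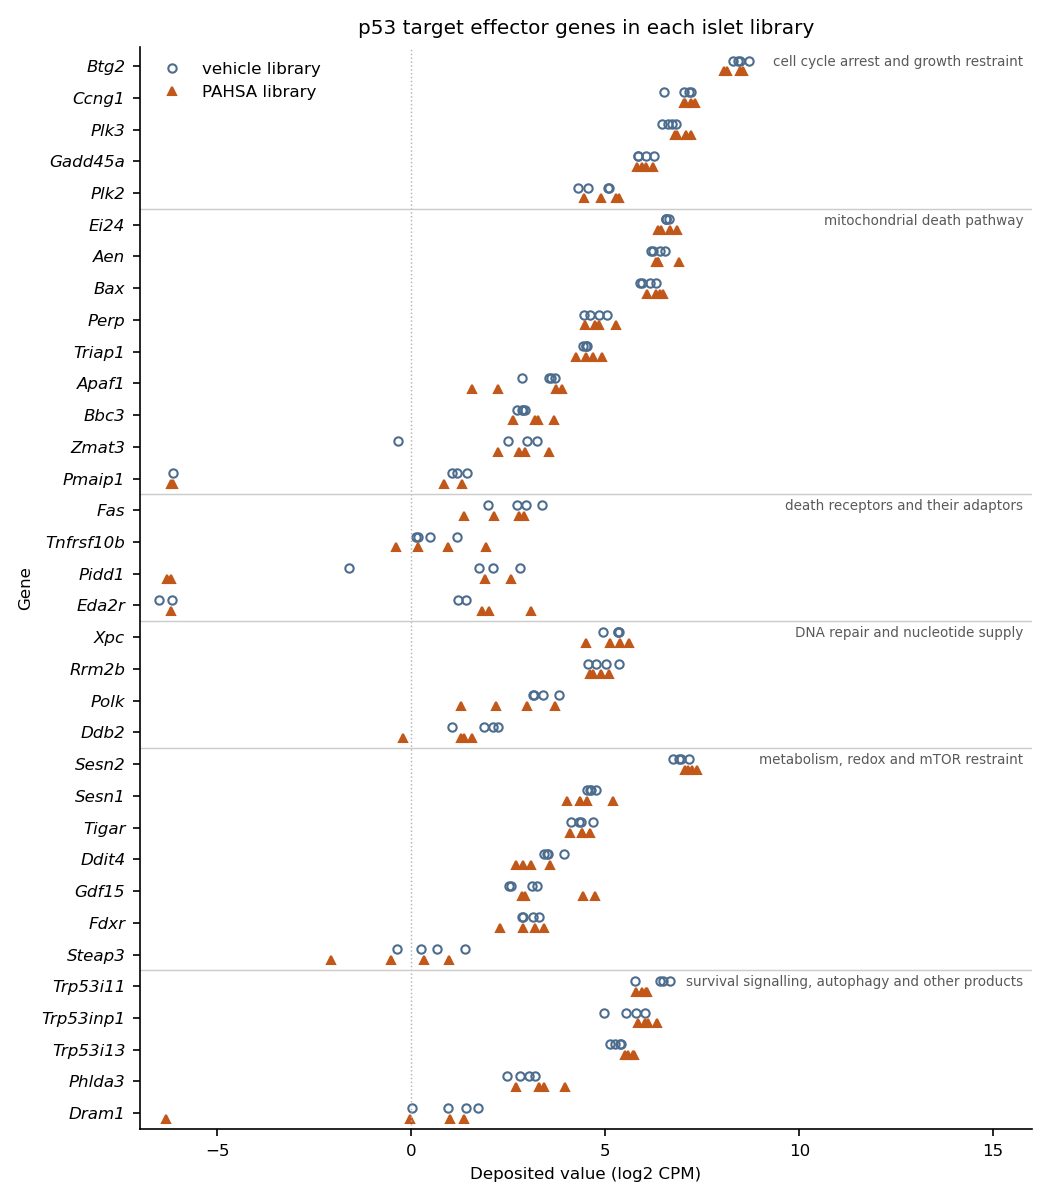
Each row is 1 of the 34 members, grouped by role, and each mark is 1 library on the log2 CPM axis (open circles vehicle, triangles PAHSA). The groups overlapped in 30 of the 31 tested members, and Pmaip1, Eda2r, Pidd1 and Dram1 had libraries at the lowest value of their column, near -6 (undetected).

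Among the members that restrain the cell cycle, Plk3 stood highest in PAHSA relative to vehicle. Plk3, a stress-responsive kinase of the polo family, was at 6.83, 6.45, 6.62 and 6.71 log2 CPM in vehicle replicates 1, 3, 4 and 5. In PAHSA replicates 1 to 4 it was at 7.08, 6.84, 7.21 and 6.79. PAHSA replicate 4 lay below vehicle replicate 1, so the groups overlapped by a single library on each side. The difference was 0.33 (SE 0.13), or 1.25-fold, with a limma p of 0.0306 unadjusted and an adjusted p of 0.671. Over the 8 fits that each left out 1 library it ran from 0.25 to 0.39.

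Btg2, an antiproliferative cofactor of messenger RNA decay, was at 8.47, 8.71, 8.30 and 8.41 log2 CPM in vehicle replicates 1, 3, 4 and 5 and at 8.14, 8.46, 8.55 and 8.07 in PAHSA replicates 1 to 4. PAHSA replicates 1 and 4 lay below every vehicle library and the other PAHSA libraries among them, and the difference was -0.17 (SE 0.13). It was -0.088 without vehicle replicate 3, -0.11 without PAHSA replicate 1, -0.090 without PAHSA replicate 4, -0.082 after quantile normalization and -0.051 with the acinar covariate. Ccng1, which encodes cyclin G1 and carries the pair of half-sites shown above, differed by 0.18 (SE 0.16). In vehicle replicate 4 it was at 6.51 log2 CPM, below 7.02 to 7.30 in the other 7 libraries, and without that library the difference was 0.02. Plk2, a second polo kinase, differed by 0.24 (SE 0.26), with values from 0.090 without vehicle replicate 4 to 0.42 without PAHSA replicate 2 and of 0.060 with the acinar covariate. It was 0.12 without PAHSA replicate 1 and 0.15 without PAHSA replicate 3. Gadd45a, a damage-induced adaptor that acts on arrest and repair, differed by 0.02 (SE 0.15), with an interval from -0.30 to 0.34.

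Genes of the mitochondrial arm of cell death were grouped with other death-related targets, namely Perp, Aen, Ei24 and Zmat3. In this mixed group 6 of 8 tested members were higher in PAHSA and 2 lower, none at an unadjusted p under 0.05. Bax, which opens the outer mitochondrial membrane, was at 5.95, 5.90, 6.32 and 6.16 log2 CPM in vehicle replicates 1, 3, 4 and 5 and at 6.48, 6.07, 6.29 and 6.40 in PAHSA replicates 1 to 4. Only PAHSA replicates 1 and 4 exceeded every vehicle library. The difference was 0.23 (SE 0.14), 1.17-fold, with an interval from -0.09 to 0.54 and the same sign in all 18 alternative fits. Bbc3, which encodes the BH3-only protein Puma, was tight in vehicle at 2.84 ± 0.09 log2 CPM (SD, n = 4) and wide in PAHSA at 3.18 ± 0.44. Its PAHSA values ran from 2.61 in replicate 4, below all vehicle libraries, to 3.69 in replicate 1, above all of them, and the difference was 0.34 (SE 0.32). It was 0.17 without PAHSA replicate 1, 0.53 without PAHSA replicate 4 and 0.59 with the acinar covariate.

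Pmaip1, which encodes the BH3-only protein Noxa, was undetected in vehicle replicate 1 and in PAHSA replicates 1 and 2, and between 0.85 and 1.44 log2 CPM in the other 5 libraries. It was not tested. Apaf1, the scaffold of the apoptosome that activates caspase 9, was at 2.84, 3.61, 3.54 and 3.71 log2 CPM in vehicle replicates 1, 3, 4 and 5 and at 2.22, 3.89, 1.57 and 3.73 in PAHSA replicates 1 to 4. PAHSA replicates 1 and 3 lay below every vehicle library and PAHSA replicates 2 and 4 above every one, and the difference was -0.57 (SE 0.52). Without PAHSA replicate 1 it was -0.36 and without replicate 3 -0.15, while it was -0.92 without PAHSA replicate 2 and -0.86 without replicate 4. Aen, an apoptosis-enhancing nuclease, differed by 0.14 (SE 0.16), and it was at 6.91 log2 CPM in PAHSA replicate 2 against 6.30 to 6.36 in the other 3 PAHSA libraries. Perp, a membrane protein of desmosomes and apoptosis, differed by 0.10 (SE 0.22). Triap1, a small inhibitor of apoptosome activation, differed by 0.09 (SE 0.20) and Ei24, an endoplasmic reticulum protein, by -0.001 (SE 0.13). Zmat3, an RNA-binding protein, differed by 0.77 (SE 0.73), but vehicle replicate 4 was at -0.35 log2 CPM while the other vehicle libraries were between 2.50 and 3.24. Without vehicle replicate 4, the library with the largest acinar sum, the difference of Zmat3 was -0.05, and with the acinar covariate it was 0.01.

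Death receptor genes were expressed at low levels in these islets. Fas, the receptor of Fas ligand, was at 2.96, 3.37, 2.72 and 1.96 log2 CPM in vehicle replicates 1, 3, 4 and 5 and at 2.90, 2.77, 1.37 and 2.13 in PAHSA replicates 1 to 4. PAHSA replicate 3 was lowest of all, and the other 3 PAHSA libraries lay within the vehicle range, for a difference of -0.46 (SE 0.47). It was -0.15 without PAHSA replicate 3, -0.25 without vehicle replicate 3 and -0.72 without vehicle replicate 5. Tnfrsf10b, the mouse TRAIL receptor, was at 0.49, 0.17, 1.16 and 0.12 log2 CPM in vehicle and at 1.93, 0.16, -0.39 and 0.93 in PAHSA in the same order. Its highest and its lowest library were both PAHSA libraries, and the difference was 0.17 (SE 0.71). Eda2r, a receptor of the ectodysplasin family, was undetected in vehicle replicates 4 and 5 and PAHSA replicate 1. In the other 5 libraries it was at 1.19 to 3.08 log2 CPM. Pidd1, a scaffold that links p53 to caspase 2, was undetected in PAHSA replicates 1 and 3, at -1.62 log2 CPM in vehicle replicate 1 and at 1.73 to 2.79 in the other 5 libraries.

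All 4 members of DNA repair and nucleotide supply had lower means in PAHSA, and none had an unadjusted p under 0.05. Polk, a translesion DNA polymerase, was at 3.14, 3.80, 3.39 and 3.16 log2 CPM in vehicle replicates 1, 3, 4 and 5 and at 1.27, 2.17, 3.71 and 2.98 in PAHSA replicates 1 to 4. PAHSA replicates 1, 2 and 4 lay below every vehicle library, and PAHSA replicate 3 lay among them. The difference was -0.84 (SE 0.49), with an interval from -1.93 to 0.25, and it was -0.42 without PAHSA replicate 1. Ddb2, the damage-binding subunit that starts repair of ultraviolet lesions, was at 1.04, 2.23, 2.10 and 1.88 log2 CPM in vehicle and at 1.28, -0.21, 1.35 and 1.56 in PAHSA in the same order. Vehicle replicate 1 lay within the PAHSA range, and the difference was -0.82 (SE 0.58). It was -0.42 without PAHSA replicate 2, the library lowest in Ddb2. Ddb2 shares 652 exon bases with Acp2 on the opposite strand, and the library kit does not mark strand. Xpc, which recognises distorted DNA, differed by -0.09 (SE 0.24), and Rrm2b, the p53-induced subunit of ribonucleotide reductase, by -0.10 (SE 0.21).

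The metabolic members were divided, with 2 higher and 5 lower. Sesn2, a leucine sensor that restrains mTORC1 and is also induced by the stress factor ATF4, was at 7.15, 6.96, 6.74 and 6.89 log2 CPM in vehicle replicates 1, 3, 4 and 5. In PAHSA replicates 1 to 4 it was at 7.35, 7.05, 7.13 and 7.23. Vehicle replicate 1 was the only vehicle library inside the PAHSA range. The difference was 0.26 (SE 0.12), 1.19-fold, with a limma p of 0.0543 unadjusted and an adjusted p of 0.687, and it ran from 0.19 to 0.33 with 1 library left out. With the acinar covariate it was 0.15. Its paralogue Sesn1, which holds a half-site in the window shown above, differed by -0.10 (SE 0.25). PAHSA replicate 1 had the highest Sesn1 value, 5.20 log2 CPM, and PAHSA replicate 4 the lowest, 4.02.

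Gdf15, a secreted stress cytokine, was at 2.58, 3.23, 3.11 and 2.51 log2 CPM in vehicle replicates 1, 3, 4 and 5 and at 4.42, 2.84, 2.93 and 4.73 in PAHSA replicates 1 to 4. PAHSA replicates 1 and 4 stood above every other library, and PAHSA replicates 2 and 3 lay within the vehicle range. The difference of 0.87 (SE 0.46), 1.83-fold, had a limma p of 0.0868 unadjusted and an adjusted p of 0.716. It was 0.54 without PAHSA replicate 4, 0.64 without PAHSA replicate 1 and 0.16 with the acinar marker mean as a covariate. PAHSA replicates 1 and 4 had the smallest summed acinar levels, 4847 and 566.6 CPM, beside 12643 to 55262 CPM in the other 6 libraries. Ddit4, a brake on mTORC1 also known as Redd1, went the other way. It was at 3.51, 3.94, 3.52 and 3.41 log2 CPM in vehicle replicates 1, 3, 4 and 5 and at 2.69, 3.57, 2.89 and 3.07 in PAHSA replicates 1 to 4. Of the PAHSA libraries only replicate 2 reached the vehicle range, and the difference was -0.54 (SE 0.29) with a limma p of 0.0934 unadjusted and an adjusted p of 0.724. Sesn2 and Ddit4, which both restrain mTORC1, thus had differences of opposite sign.

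Tigar, a phosphatase that lowers glycolytic flux, had a mean of 4.38 log2 CPM in both groups, with an SD of 0.23 among the vehicle libraries and 0.21 among those from PAHSA, and an interval of the difference from -0.46 to 0.46. Fdxr, a mitochondrial electron donor for steroid and iron-sulphur synthesis, differed by -0.09 (SE 0.33). Steap3, an endosomal iron reductase, differed by -0.80 (SE 0.88) at low levels that ranged from 8 estimated counts in PAHSA replicate 2 to 117 in vehicle replicate 5. It was -0.22 without PAHSA replicate 2, -0.50 without vehicle replicate 5 and -1.23 without PAHSA replicate 4.

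**Figure D2:**
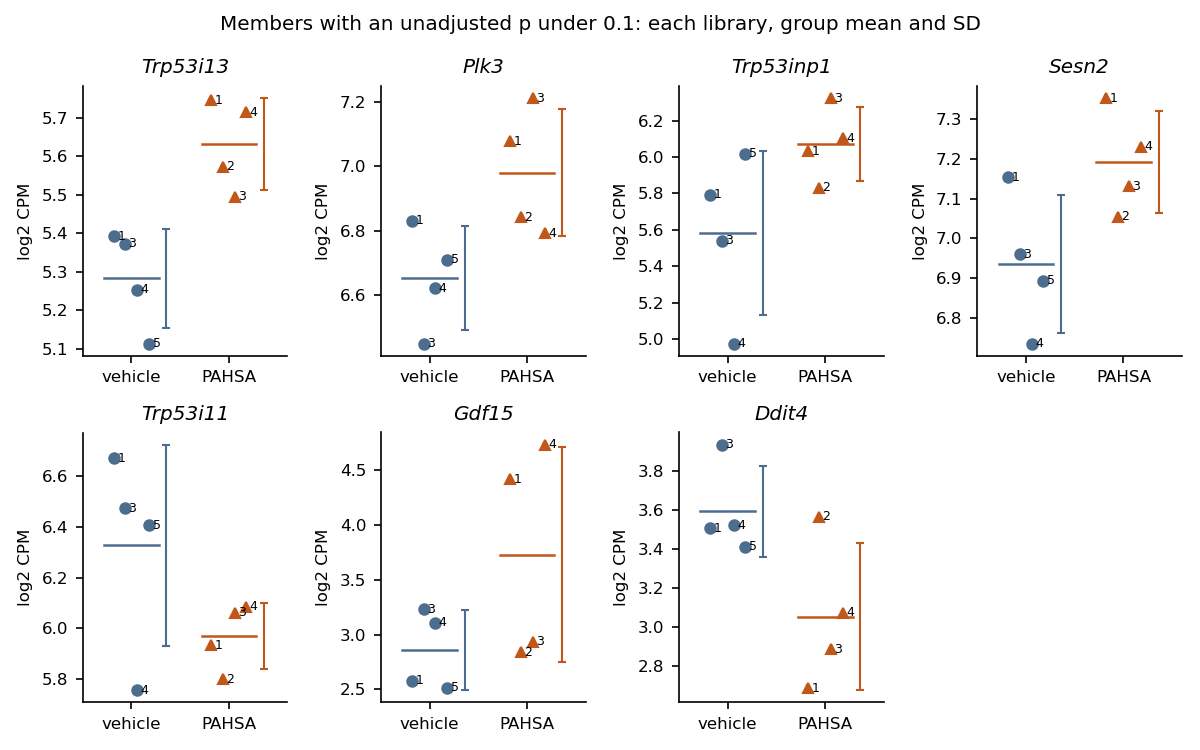
The 7 members with an unadjusted p under 0.1, with 1 panel each on its own log2 CPM axis. Numbered points are libraries, horizontal lines group means and bars 1 SD (n = 4). Trp53i13 has all 4 PAHSA libraries above all 4 vehicle libraries, whereas Gdf15 is set apart by PAHSA replicates 1 and 4 alone.

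The remaining members act in survival signalling, autophagy and less well known processes, and they include 2 of the 3 smallest p-values. Trp53i13, a p53-inducible membrane protein, was at 5.39, 5.37, 5.25 and 5.11 log2 CPM in vehicle replicates 1, 3, 4 and 5 and at 5.75, 5.57, 5.49 and 5.71 in PAHSA replicates 1 to 4. The groups did not overlap, which held for 1 of the 31 tested members (3.23%) and for 4.01% of all genes tested (2.06% higher and 1.95% lower). The difference was 0.35 (SE 0.14), 1.27-fold, with a limma p of 0.0306 unadjusted and an adjusted p of 0.671, and it ran from 0.29 to 0.39 with 1 library left out. Trp53i13 (ENSMUSG00000044328) lies on chromosome 11 from 77508099 to 77515980 in GRCm38 and shares 328 exon bases with Abhd15 on the opposite strand. Abhd15 itself had a vehicle mean of 5.38 ± 0.34 log2 CPM (SD, n = 4) and a PAHSA mean of 5.78 ± 0.26, a difference of 0.40 (SE 0.20). With no strand in the libraries, reads from the shared bases of these 2 genes cannot be told apart.

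Trp53inp1, which promotes p53 activity and autophagy, was at 5.79, 5.54, 4.98 and 6.02 log2 CPM in vehicle replicates 1, 3, 4 and 5 and at 6.03, 5.83, 6.32 and 6.10 in PAHSA replicates 1 to 4. Vehicle replicate 4 was far below the rest, and vehicle replicate 5 lay inside the PAHSA range. The difference was 0.49 (SE 0.22), 1.40-fold, with a limma p of 0.0454 unadjusted and an adjusted p of 0.674, and it was 0.29 without vehicle replicate 4. Trp53i11, a p53-inducible protein linked to apoptosis, was at 6.67, 6.47, 5.76 and 6.41 log2 CPM in vehicle and at 5.93, 5.80, 6.06 and 6.08 in PAHSA in the same order. Here vehicle replicate 4 was the lowest of all 8 libraries, and the other 3 vehicle libraries exceeded every PAHSA library. The difference was -0.36 (SE 0.19), with a limma p of 0.0843 unadjusted and an adjusted p of 0.715. Without vehicle replicate 4 it was -0.55, and the unadjusted limma p was 0.00228. That was the smallest p of Trp53i11 over the 18 alternative fits, in which it reached 0.283. Its smallest adjusted p in any of them was 0.562. Phlda3, which blocks the membrane binding of the survival kinase Akt, differed by 0.46 (SE 0.35), from a mean of 2.88 log2 CPM with an SD of 0.31 in vehicle to 3.34 with an SD of 0.53 in PAHSA. It was 0.26 without PAHSA replicate 1 and 0.82 with the acinar covariate. Dram1, a lysosomal protein of autophagy, was undetected in PAHSA replicate 4 and between -0.04 and 1.72 log2 CPM elsewhere, so its difference of -2.02 (SE 1.54) was -0.25 without that library.

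**Figure D3:**
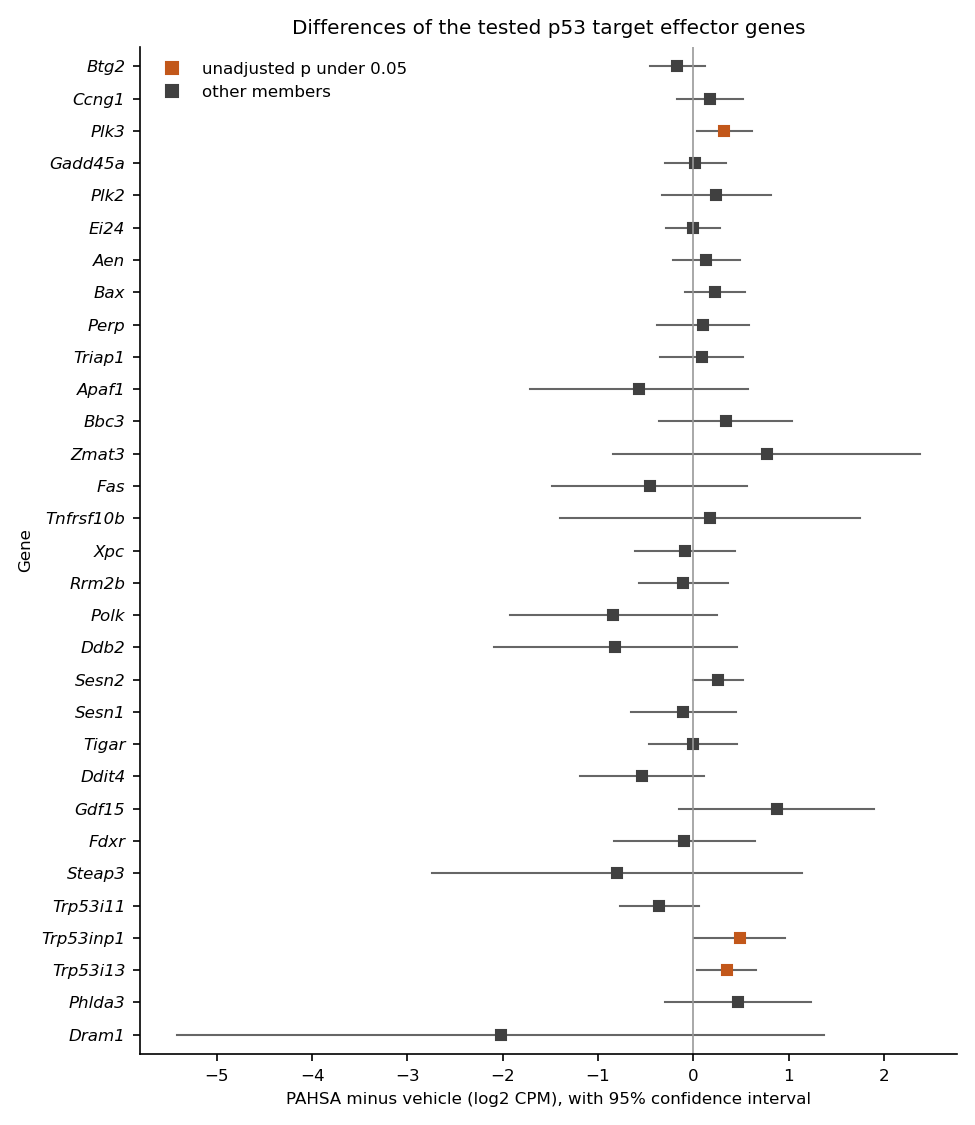
Squares are PAHSA minus vehicle differences (log2 CPM) of the 31 tested members and lines their 95% confidence intervals from limma, in the order of the roles. Orange squares mark an unadjusted p under 0.05, for Plk3, Trp53inp1 and Trp53i13. None passed after adjustment over all genes, and the widest interval is that of Dram1.

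The members also differed in how much of them islets hold. Levels between genes are given as CPM per kilobase of the longest coding transcript in GENCODE M21, an approximation since the isoform in use is unknown. In vehicle, Btg2 led with a geometric mean of 129.5 CPM per kb (115.1 to 152.7 over 4 libraries), above the next gene, Bax, at 61.6 (54.3 to 72.5). Gadd45a at 52.0, Plk3 at 42.3, Ei24 at 41.5, Ccng1 at 35.7, Sesn2 at 35.2 and Trp53i11 at 29.7 CPM per kb followed, each with a range overlapping that of its neighbour. In all, 13 members exceeded 10 CPM per kb and 7 were below 1. The tested member lowest in this order was Steap3 at 0.269 CPM per kb, 481-fold below Btg2. Of 33 neighbouring pairs in the order 28 had overlapping vehicle ranges, and the 5 steps without overlap were those from Btg2 to Bax, Trp53i13 to Triap1, Triap1 to Aen, Bbc3 to Polk and Polk to Apaf1. Among the death genes, Bax thus stood far above the BH3-only gene Bbc3 at 3.96 CPM per kb and the receptor gene Fas at 4.55.

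**Figure D4:**
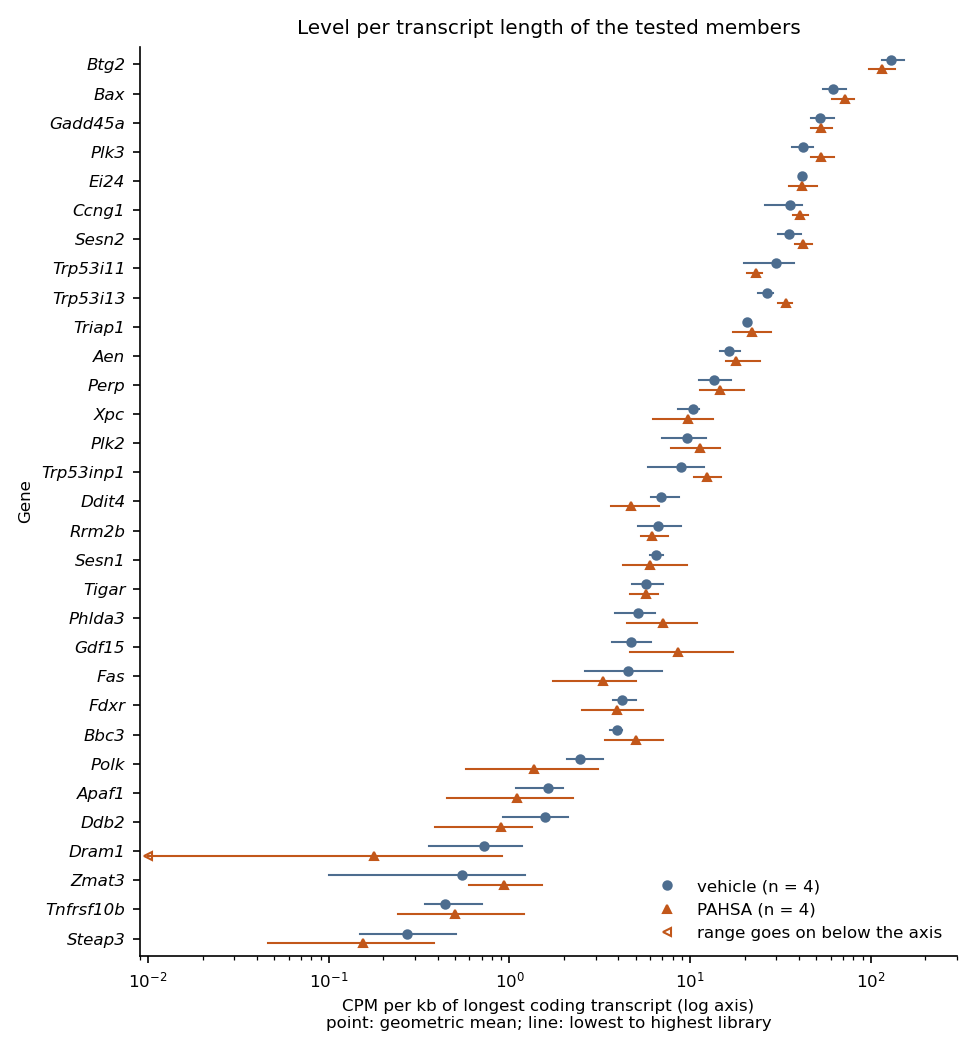
Level of the 31 tested members in CPM per kb of the longest coding transcript, on a log axis. Points are geometric means and lines the lowest to highest of 4 libraries in each group. Vehicle levels run from 0.269 for Steap3 to 129.5 for Btg2, and the PAHSA range of Dram1 goes on below the axis because 1 library was undetected.

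Many effectors had their highest value in PAHSA replicate 1. Of the 31 tested members 12 were highest in that library (38.7%), where 14.6% of all genes tested were. These 12 were Bax, Bbc3, Phlda3, Ccng1, Plk2, Sesn1, Sesn2, Triap1, Ei24, Fdxr, Tnfrsf10b and Trp53i13. Cdkn1a, which encodes the kinase inhibitor p21 and is not a member, was also highest there, at 6.81 log2 CPM against 6.06 to 6.68 elsewhere. No other tested gene among the further p53 targets listed below was highest there. Ercc5, Sfn, Gls2, Ptp4a3, Cd82 and Tap1 of that list were lowest there. Mdm4, which restrains p53, was lowest there, at 3.50 against 4.66 to 5.51. Mdm2 was highest in vehicle replicate 3, at 6.55, and Trp53 in vehicle replicate 4, at 5.278. In PAHSA replicate 1 they were at 6.54 and 5.276. Among tested members, Polk and Ddit4 were lowest there, 6.45% of them beside 14.8% of all genes tested. Pmaip1, Eda2r and Pidd1, the members not tested, were undetected there. The median member stood 0.26 above its own 8-library mean in PAHSA replicate 1, and between -0.04 and 0.07 from it in the other 7 libraries. Over all genes tested that median was between 0.01 and 0.04 in every library. PAHSA replicate 1 was the library whose removal left 0 members at an unadjusted p under 0.05, beside 6.24% of all genes tested. This pattern was noticed in the data and has no test.

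**Figure D5:**
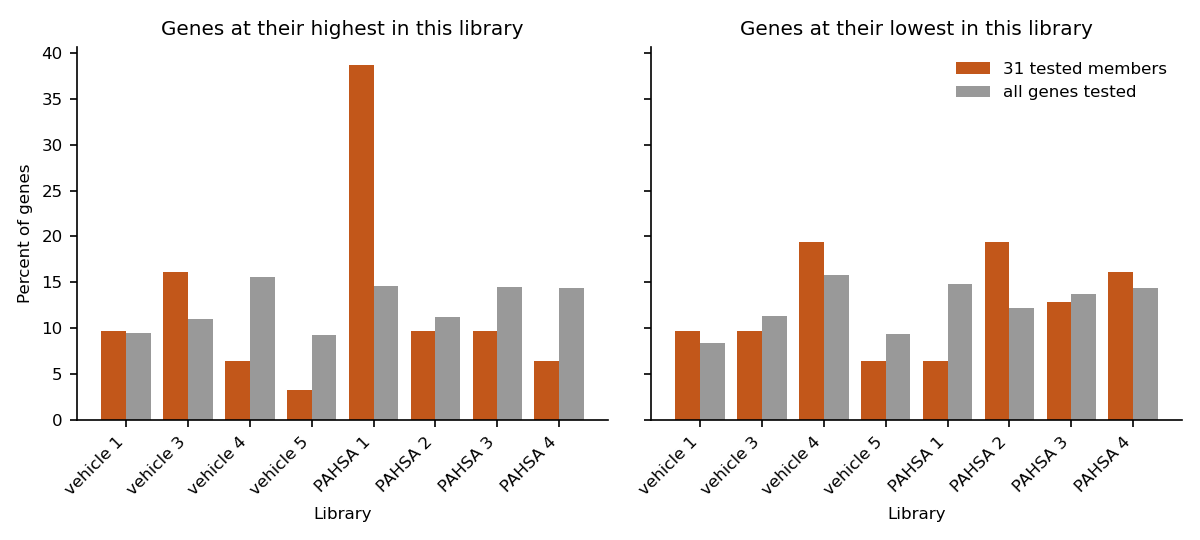
Percent of the 31 tested members (orange) and of all 12231 genes tested (grey) that had their highest (left) or lowest (right) value in each library. PAHSA replicate 1 holds the highest value of 38.7% of the members and of 14.6% of all genes, and no other library exceeds 16.1% of the members on the left.

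Other genes of the pathway were read from lists in the same fit. Of 20 listed regulators of p53 activity 16 were tested, with 8 higher and 8 lower, 0 at an unadjusted p under 0.05 and a median difference of -0.01. Trp53 and Mdm2 differed by 0.02 (SE 0.19) and -0.07 (SE 0.14). The smallest p-values were those of Mdm4 at -0.71 (SE 0.34), the acetyltransferase gene Ep300 at -0.29 (SE 0.17) and the checkpoint kinase gene Chek1 at 1.17 (SE 1.24). Mdm4 was at 5.51, 5.13, 5.36 and 5.44 log2 CPM in vehicle replicates 1, 3, 4 and 5 and at 3.50, 5.14, 4.66 and 5.30 in PAHSA replicates 1 to 4, so that PAHSA replicates 2 and 4 lay in the vehicle range. Of 20 further p53 targets 17 were tested, with 6 higher and 11 lower and a median difference of -0.10. Among them Cdkn1a differed by 0.01 (SE 0.18), and only the tetraspanin gene Cd82 had an unadjusted p under 0.05, at -0.32 (SE 0.14). Pml, the scaffold of nuclear bodies, differed by -0.76 (SE 0.35).

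Some members answer to other stress programmes too, and lists of those were set beside them. ATF4 and CHOP, factors of the integrated stress response, are known to induce Sesn2, Ddit4 and Gdf15 as well. Of 10 other genes of that response 6 were higher and 4 lower, 1 in each direction at an unadjusted p under 0.05. Ddit3, which encodes CHOP, was at 5.84, 6.03, 6.19 and 5.88 log2 CPM in vehicle and at 7.0, 6.07, 6.38 and 6.45 in PAHSA. Its highest libraries, PAHSA replicates 1 and 4, were those in which Gdf15 was highest, and its difference was 0.49 (SE 0.19). The pseudokinase gene Trib3 differed by 0.39 (SE 0.19) and Nupr1, a stress gene, by -1.26 (SE 0.52), with its lowest values, 7.19 and 6.37 log2 CPM, in the 2 libraries lowest in acinar markers. Of 12 immediate early genes, which answer within minutes to growth factors and to tissue handling, 4 were higher and 8 lower, 3 of the lower at an unadjusted p under 0.05. These were Zfp36, a messenger RNA decay factor, at -0.55 (SE 0.14), Ier3 at -0.88 (SE 0.24) and Junb, an AP-1 subunit, at -0.34 (SE 0.14). None of these neighbouring genes passed after adjustment over all genes.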

How the data were processed

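RNA of 8 islet libraries, 4 vehicle and 4 PAHSA, was extracted with a column kit and made into libraries with Nextera XT, which does not mark strand, per the labels' protocols. The authors deposited log2 CPM, and the submitters' processing notes name kallisto and limma without versions. The sources used here name no genome build, and depth was recovered only as estimated counts. All columns matched a library by name, and 56 identifiers had no symbol in GENCODE M21. Overlaps and lengths came from GENCODE M21 (GRCm38), and 8 members share exon bases with another gene.

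Genes with a mean log2 CPM above 0 were tested with limma 3.58.1 in R 4.3.3 (lmFit, eBayes with trend), with no term but the group, and two-sided p-values had a Benjamini-Hochberg adjustment over 12231 genes at 0.05. The fit was tested on simulated data. Differences are PAHSA minus vehicle. In a weakly expressed gene, 1 undetected library can carry much of the log2 CPM difference. That of Dram1 was -2.02 (SE 1.54) over all libraries and -0.25 without its undetected library. Alternatives were other filters, log2(CPM + 1), scalings, variance models, library weights, the replicate number as a block, an acinar covariate and leaving out each library. The members and gene lists were chosen with earlier results of these data known. Values in every library are given for members with an unadjusted p under 0.1, for members whose groups do not overlap and for at least 2 members of each role with the smallest p, and from each pathway list the 3 genes with the smallest p are named, except 1 gene that is not reported here.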

Additional observations from a re-analysis of the deposited data

Results flagged for a closer look

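In 5 of 68 groups of 4 libraries, 1 library stood apart from the other 3 by more than Dixon's 95% critical value allows, and chance flags about 5% of such groups. Pmaip1 was at -6.14 log2 CPM (undetected) in vehicle replicate 1 against 1.04 to 1.44 in the other vehicle libraries. Eda2r was at -6.19 (undetected) in PAHSA replicate 1 against 1.82 to 3.08. Aen was at 6.91 in PAHSA replicate 2 against 6.30 to 6.36, and Ddb2 at -0.21 in the same library against 1.28 to 1.56. Xpc was at 4.95 in vehicle replicate 3 against 5.31 to 5.35.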

How the results depend on the processing

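In 18 alternatives to the limma fit, 0 members passed an adjusted p of 0.05 (smallest 0.543), and 17 of the 31 tested members kept their sign in every alternative that tested them. The filter at a mean above 2 dropped Ddb2, Tnfrsf10b, Steap3 and Dram1, which had 17 alternatives. The count of members at an unadjusted p under 0.05, 3 as reported, was between 0 and 6 with 1 library left out. Of all genes tested 5.47% to 7.91% were under 0.05 in those fits. With the replicate number from the labels as a replicate block the count of members was 1, beside 5.96% of all genes tested. That fit takes the difference only from the 3 numbers shared by the groups. Vehicle replicate 5 and PAHSA replicate 2, whose numbers are not shared, do not bear on it. Same-numbered libraries did not deviate together (correlations of -0.02 for each of the 3 numbers shared by the groups), so the numbers were not taken as pairs. With the block, Xpc differed by 0.16, Tigar by 0.076, Fdxr by 0.15 and Steap3 by 0.080, all with the other sign than reported. With the acinar mean as a covariate, signs changed for Ei24 (0.044), Tnfrsf10b (-0.12), Sesn1 (0.018) and Dram1 (0.65), and for Ei24 also under quantile normalization (0.017) and with array weights (0.017). The block also moved Fas to -0.88 and Ddb2 to -0.39. With 1 library left out, differences that changed sign ran from -0.049 to 0.11 for Gadd45a, -0.045 to 0.22 for Perp, -0.0067 to 0.20 for Aen, -0.095 to 0.076 for Ei24, -0.024 to 0.21 for Triap1, -0.047 to 1.15 for Zmat3, -0.25 to 0.52 for Tnfrsf10b, -0.23 to 0.038 for Rrm2b, -0.24 to 0.13 for Xpc, -0.33 to 0.063 for Sesn1, -0.085 to 0.10 for Tigar and -0.26 to 0.12 for Fdxr. The cause was not tested. Steap3, Dram1, Tnfrsf10b and Ddb2 rest on few counts, at most 117, 116, 139 and 192 estimated in any library. The 3 members not tested had 0 estimated counts in some libraries. In others they reached 111 for Pmaip1, 284 for Pidd1 and 338 for Eda2r.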
